A study of Oreochromis niloticus with 18 samples.

Results

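The thyroid hormones T2, a diiodothyronine, and T3, triiodothyronine, were set against each other in the brain of juvenile Nile tilapia (Oreochromis niloticus, 4 months old) by RNA-seq. The members of the comparison are 8 of the 18 libraries of the study: 4 libraries of fish given T2 and 4 libraries of fish given T3, in each case 2 of the cerebellum and 2 of the thalamus-pituitary. These libraries were picked by their labels and not by any measured value, although the comparison was chosen with earlier results of these data known. Both hormones were given at 25 nM in the water for 12 h, so that dose and time were matched and a single pair of compounds was compared. The compounds differ in that T3 carries an additional iodine on the outer ring. The 4 libraries of the same brain regions from fish without hormone served only to show how a transcript varied in its absence. Each brain library pooled 4 fish, with 2 libraries per hormone and region. By the methods of the study each hormone group had 8 fish, so its cerebellum and thalamus-pituitary pools drew on the same fish. The sources do not say whether pools of the same number held the same 4. The p-values measure the spread between these pools, and a fit over both regions counts them as separate samples.

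Thyroid hormones act mainly through nuclear receptors that sit on DNA together with cofactors and switch target genes on or off when T3 binds. T3 is made from thyroxine by removal of an outer-ring iodine, and T2 can arise when T3 loses a further one. In the vertebrate brain, thyroid hormone governs the maturation of neurons and glia, and in the adult it acts on metabolism, neuronal signalling and the pituitary feedback that sets its own level. In mammals T2 is best known for effects on mitochondria, whereas in teleost fish it also binds a long form of thyroid hormone receptor beta.

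The 8 hormone libraries held between 1568714 and 5792990 effective counts (estimated reads per transcript, corrected for the part of a transcript that fragments can come from), and 1 count was worth between 0.172 and 0.638 CPM (counts scaled to a common library size). The shallowest was the first cerebellum library given T2. Region labels were checked against marker genes. FAT2, a gene of cerebellar granule cells, reached 1586 to 2320 CPM in cerebellum libraries. Among the thalamus-pituitary libraries, it stood at 86.9 and 2.65 CPM with T2 and at 22.5 and 73.1 CPM with T3, against 4.34 and 2.24 CPM in controls. No transcript of a pituitary hormone carried a gene symbol here, so the pituitary share of that sample was not checked. Globin and other red blood cell markers summed to 2943 to 3752 CPM with T2, to 2756 to 3428 CPM with T3 and to 4220 to 7461 CPM in controls. Gene symbols could be paired with 1646 of the 26763 transcripts, and the others are given by their Ensembl identifier with no role.

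Few transcripts separated the hormones once both regions were fitted together. Of 17595 transcripts tested with edgeR's quasi-likelihood test, with region as a covariate and Benjamini-Hochberg adjustment, 13 passed an adjusted p-value of 0.05, or 0.0739%. Of these, 11 were higher with T2 (0.0625%) and 2 were lower with T2 (0.0114%). A further view without adjustment counted 1514 transcripts (8.6%) under a p-value of 0.05, 852 of them higher with T2 (4.84%) and 662 lower (3.76%). Both libraries given T2 lay above both given T3 in each region for 962 transcripts (5.47%), and below them in each region for 821 (4.67%). The median log2 fold change of T2 over T3 was -0.01. For all 13 called transcripts the libraries of the hormones did not overlap in either region. The count differed widely between fits: DESeq2 with its own filter and scaling called 132 transcripts and edgeR's likelihood ratio test called 158. An edgeR quasi-likelihood fit that also took in the 4 controls called 0, with 1506 at an unadjusted p-value under 0.05, and summing the regions of each hormone by pool number left 5.

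The 11 transcripts that were higher with T2 formed a block of like size. Their fold changes ran between 6.51 and 12.2, with a median of 9.45 (3.24 on the log2 scale), and in each of them the lowest T2 library was at least 3.13-fold above the highest T3 library. Of the 13 called transcripts 7 had a symbol, 6 of which were in this block. In mammals their products work in the ribosome, the endoplasmic reticulum, the nuclear envelope, the dynein motor, the respiratory chain and the lysosome surface.

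RPS12 (ENSONIT00000000550), a protein of the small ribosomal subunit, was the most abundant of the block. With T2 it was at 494 and 400 CPM in the cerebellum and 397 and 334 CPM in the thalamus-pituitary, against 34.8 and 44.2 CPM and 37.2 and 35.6 CPM with T3. All 4 T2 libraries stood far above all 4 T3 libraries, in both regions alike. The log2 fold change was 3.40 (SE 0.12, edgeR quasi-likelihood adjusted p = 4.02e-06). Controls, however, split: 1 was low and 1 was high in each region, at 23.96 and 430 CPM in the cerebellum and 50.7 and 401 CPM in the thalamus-pituitary.

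SELK (ENSONIT00000002306) encodes selenoprotein K, a membrane protein of the endoplasmic reticulum. With T2 it measured 31.9 and 25.7 CPM in the cerebellum and 32.3 and 44.8 CPM in the thalamus-pituitary, against 2.72 and 3.47 CPM and 3.60 and 4.32 CPM with T3. The log2 fold change was 3.24 (SE 0.19, edgeR adjusted p = 0.000198). Its controls divided only in the cerebellum, at 2.18 and 22.2 CPM, and were both high in the thalamus-pituitary, at 35.1 and 23.6 CPM.

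BANF1 (ENSONIT00000002213), the barrier-to-autointegration factor that bridges DNA and the nuclear lamina, followed the same order. It was at 19.8 and 36.4 CPM in the cerebellum and 27.4 and 25.3 CPM in the thalamus-pituitary with T2, against 2.99 and 2.17 CPM and 2.75 and 1.99 CPM with T3. No T3 library came near a T2 library. The difference was 3.45 on the log2 scale (SE 0.25, edgeR adjusted p = 0.000779), and the controls were at 1.45 and 28.5 CPM in the cerebellum and 22.3 and 16.5 CPM in the thalamus-pituitary.

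DYNLL1 (ENSONIT00000018100), a light chain of the dynein motor, differed between regions in level as well as between hormones. In cerebellum libraries it stood at 68.3 and 39.4 CPM with T2 and at 3.26 and 8.24 CPM with T3. In thalamus-pituitary libraries it stood at 114 and 138 CPM with T2 and at 10.8 and 9.97 CPM with T3. The hormones did not overlap in either region (log2 fold change 3.39, SE 0.26, edgeR adjusted p = 0.00103). Control libraries again lay at both ends, at 2.72 and 67.2 CPM and at 12.8 and 140 CPM.

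COX5B (ENSONIT00000015870) encodes a nuclear-encoded subunit of cytochrome c oxidase. T2 libraries held 57.4 and 45.5 CPM in the cerebellum and 43.0 and 57.5 CPM in the thalamus-pituitary, against 3.80 and 9.98 CPM and 5.49 and 5.98 CPM in T3 libraries. No T3 library reached the level of any T2 library. The log2 fold change was 2.98 (SE 0.25, edgeR adjusted p = 0.00196). Controls had 1.81 and 48.3 CPM in the cerebellum and 80.7 and 60.9 CPM in the thalamus-pituitary.

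LAMTOR5 (ENSONIT00000003180), a subunit of the Ragulator complex that brings mTORC1 to lysosomes, was the least firm of the block. It reached 16.6 and 18.3 CPM in the cerebellum and 8.14 and 13.9 CPM in the thalamus-pituitary with T2, against 0.814 and 2.60 CPM and 1.72 and 1.33 CPM with T3. The log2 fold change was 3.05 (SE 0.36, edgeR adjusted p = 0.0188). Its controls were at 0.907 and 21.4 CPM in the cerebellum and at 22.3 and 14.3 CPM in the thalamus-pituitary. Leaving out 1 library ended this call in 6 of 8 cases, with edgeR adjusted p-values between 0.0513 and 0.105 for those 6 (either cerebellum T2 library, the second cerebellum T3 library, the second thalamus-pituitary T2 library, or either thalamus-pituitary T3 library).

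The other 5 transcripts of the block had no symbol. ENSONIT00000022005 measured 35.1 and 34.0 CPM in the cerebellum and 41.2 and 44.8 CPM in the thalamus-pituitary with T2, against 2.72 and 4.55 CPM and 5.15 and 3.99 CPM with T3 (log2 fold change 3.20, SE 0.17, edgeR adjusted p = 0.000117). In ENSONIT00000016260, ENSONIT00000024828, ENSONIT00000004344 and ENSONIT00000018583 the log2 fold changes were 2.70, 3.26, 3.15 and 3.61. Their adjusted p-values lay between 0.00448 and 0.0066. ENSONIT00000018583 lost its call without the first thalamus-pituitary T3 library (edgeR adjusted p = 0.0502).

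**Figure D1:**
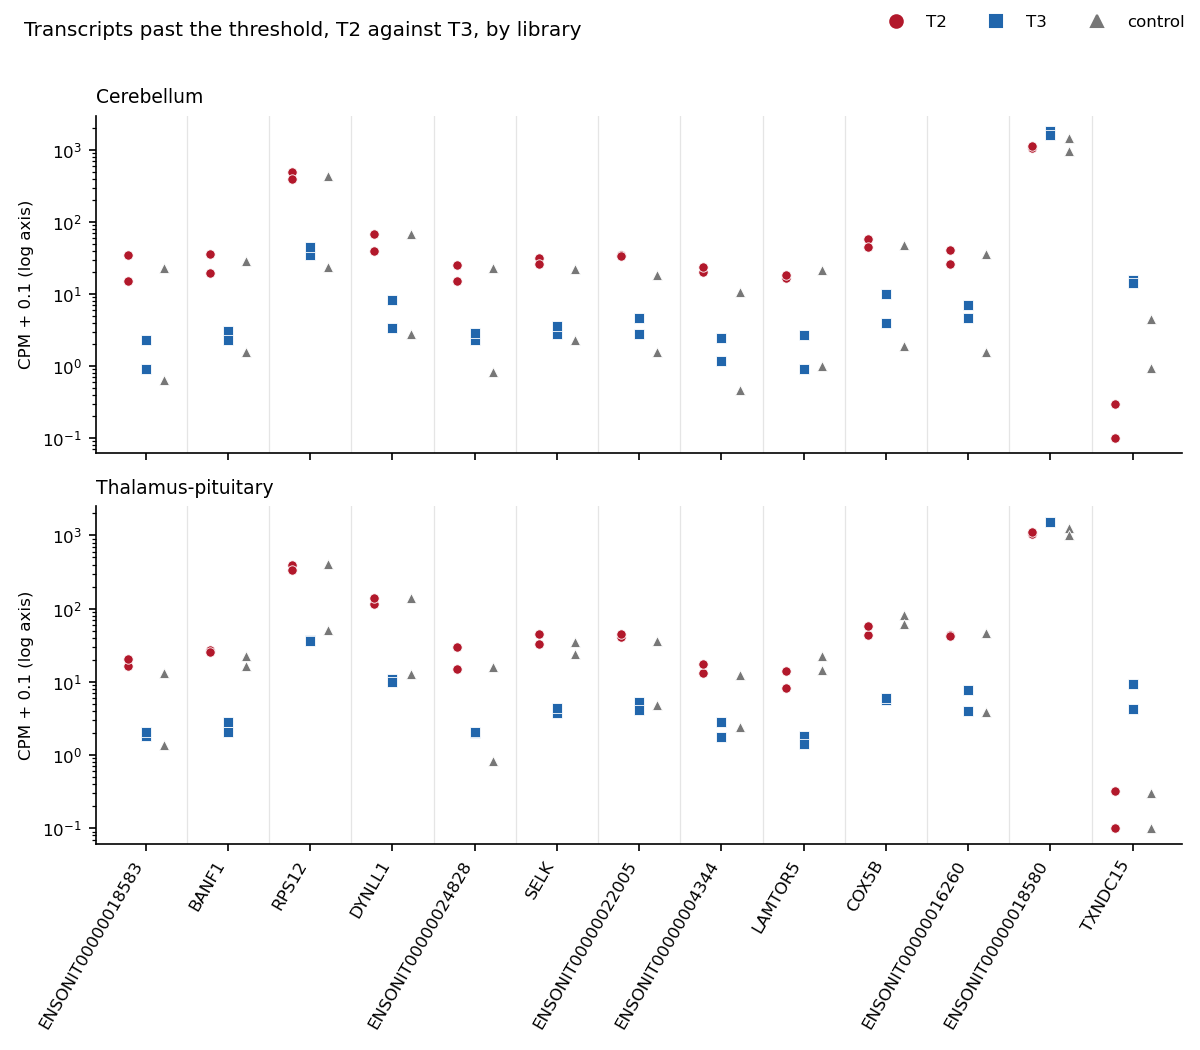
CPM of the 13 transcripts past the threshold in each library, with 0.1 added and drawn on a log axis, for the cerebellum (upper) and the thalamus-pituitary (lower). Each point is 1 library: T2 as circles, T3 as squares and controls as triangles. In the 11 transcripts on the left, circles lie above squares in both regions, and cerebellum triangles lie at both ends, which leaves the 2 control libraries far apart.

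How far the same 11 transcripts varied without hormone was read from the controls. Between the 2 controls of the cerebellum, the median absolute log2 difference over the 11 was 4.14 and the largest was 4.52, and between those of the thalamus-pituitary the median was 2.83 and the largest 3.76 (log2 CPM with a prior count of 2). Pools of the same hormone lay close together by the same measure, with medians for T2 of 0.33 (cerebellum) and 0.33 (thalamus-pituitary), and for T3 of 0.66 and 0.23. The 11 were picked by a test on these same hormone libraries, which favours pools that lie close. Controls took no part in that test, so the smaller gaps within a hormone do not show that hormone pools vary less than controls. The first cerebellum control was nearer to T3 in 11 of 11 and the second was nearer to T2 in 11 of 11. In the thalamus-pituitary, the first control was nearer to T2 in 4 of 11 (SELK, BANF1, COX5B and LAMTOR5) and the second in 11 of 11.

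A gap of over 4-fold between the 2 controls of at least 1 region was found in all 11, beside 1066 of all 17595 transcripts (6.06%). It was in the cerebellum in all 11, beside 3.91% of all transcripts, and also in the thalamus-pituitary in 7 of them, beside 3.13%. When the 1066 were left out before adjustment, a step added after the data were seen, 2 of 16529 transcripts passed, TXNDC15 and ENSONIT00000018580 (both edgeR adjusted p = 0.0493). TXNDC15 lay just inside that limit, with a log2 gap of 1.88 between its cerebellum controls after the prior count, which narrows gaps at low levels. Set against controls over both regions, which are shared by these contrasts, 7 transcripts passed for T2 (0.0398%) and 175 for T3 (0.995%), and 0 of the 13 passed in either. RPS12 had a log2 fold change of 0.85 for T2 over control and of -2.56 for T3 over control (edgeR adjusted p = 0.758 and 0.104), and COX5B had 0.19 and -2.78 (edgeR adjusted p = 0.974 and 0.0831). What set the level of these transcripts in the controls was not tested, nor was the sharing of reads with near-identical gene copies, which estimated counts divide by probability.

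**Figure D2:**
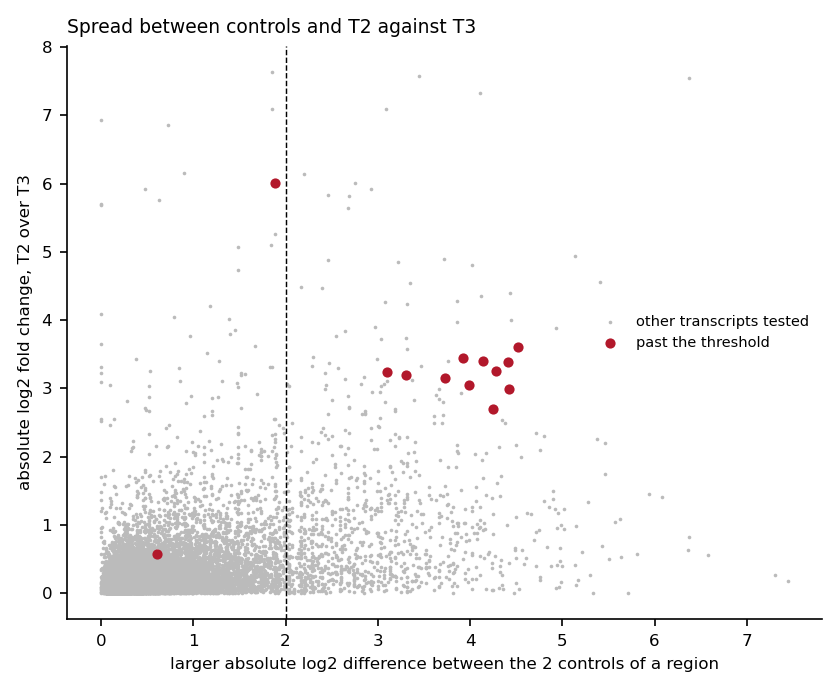
Absolute log2 fold change of T2 over T3 against the larger of the absolute log2 differences between the 2 control libraries of a region, for the 17595 transcripts tested. Each grey point is 1 transcript, red points are the 13 past the threshold, and the dashed line marks a 4-fold gap between controls (2 on the log2 scale). Right of the line lie 11 red points, and left of it lie TXNDC15 at the top and ENSONIT00000018580 at the bottom.

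Only 2 transcripts were called lower with T2, and they differed in kind. TXNDC15 (ENSONIT00000021838) encodes a thioredoxin-domain membrane protein. With T2 it had 0 and 0.199 CPM in the cerebellum and 0.226 and 0 CPM in the thalamus-pituitary, against 15.8 and 14.1 CPM and 4.12 and 9.30 CPM with T3. It was thus nearly without reads in all 4 T2 libraries and present in all 4 T3 libraries. In all, 2 counts stood against 175 counts, a rate 81.3 times as high with T3 (exact 95% interval for counting error only, 22.2 to 677). The log2 fold change was -6.01 (SE 0.62, edgeR adjusted p = 0.0066). The controls had 4.36 and 0.840 CPM in the cerebellum and 0 and 0.204 CPM in the thalamus-pituitary, so that both cerebellum controls lay between the hormones and the thalamus-pituitary controls lay with T2. Thinning all libraries to the depth of the shallowest ended the call (edgeR adjusted p = 0.171).

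ENSONIT00000018580, which has no symbol here, was abundant and changed little, with a small spread. T2 libraries had 1058 and 1148 CPM in the cerebellum and 1048 and 1097 CPM in the thalamus-pituitary, and T3 libraries had 1817 and 1641 CPM and 1546 and 1503 CPM. Every T3 library exceeded every T2 library across regions (log2 fold change -0.58, SE 0.06, 95% interval -0.72 to -0.44, edgeR adjusted p = 0.00875). Controls lay at 1469 and 963 CPM in the cerebellum and at 1275 and 1015 CPM in the thalamus-pituitary, so that in each region 1 control lay between the hormones and 1 lay below both T2 libraries.

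The 7 transcripts next in order of p-value did not pass. A small difference at a high level was seen for ENSONIT00000019408, at 2152 and 1948 CPM in the cerebellum and 1243 and 1295 CPM in the thalamus-pituitary with T2, against 1527 and 1528 CPM and 1003 and 963 CPM with T3 (log2 fold change 0.40, edgeR adjusted p = 0.0549). Its controls, at 2022 and 1926 CPM and at 1361 and 1418 CPM, stood with T2, and T3 against control passed the threshold (log2 fold change -0.44, edgeR adjusted p = 0.0166). NEBL, nebulette, an actin-binding protein, had 201 and 158 CPM in the cerebellum and 53.4 and 63.8 CPM in the thalamus-pituitary with T2, against 114 and 108 CPM and 33.8 and 37.9 CPM with T3 (log2 fold change 0.70, edgeR adjusted p = 0.0599). ENSONIT00000023508 and RPL36A-HNRNPH2, a ribosomal protein transcript with a readthrough name, had log2 fold changes of 0.60 and -0.50. The remaining 3 (ANAPC11, ENSONIT00000026538 and ENSONIT00000024945) were low, with log2 fold changes of 4.81, 3.89 and 3.97, and each had cerebellum controls that were far apart.

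A stricter description asked for both T2 libraries of a region to exceed both T3 libraries of that region more than 3-fold. It held in both regions for 18 transcripts (0.102%), 11 of them past the threshold and 17 with controls of a region over 4-fold apart. In the opposite direction 11 transcripts met it (0.0625%), of which TXNDC15 alone had passed the threshold and 6 had controls over 4-fold apart. Some in either direction met it on very few reads, since any level above 0 exceeds 0 more than 3-fold. In the thalamus-pituitary, ENSONIT00000022569 had 0.172 CPM in the first T3 library against 0 CPM in both T2 libraries. ENSONIT00000024247 had 0.408 CPM in the second T2 library there against 0 CPM in both T3 libraries.

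Each region was then tested on its own, which left 2 pools per hormone. In the cerebellum 2 of 15680 transcripts passed (0.0128%), with 979 at an unadjusted p-value under 0.05, and in the thalamus-pituitary 9 of 16623 passed (0.0541%), with 975 unadjusted. All 11 of these calls were higher with T2. RPS12 was called in both regions, with cerebellum and thalamus-pituitary log2 fold changes of 3.49 and 3.31 (edgeR adjusted p = 0.00896 and 0.00177). The cerebellum calls were lost without either T3 library of that region, and 27 transcripts were called there without the first T2 library. In the thalamus-pituitary 32 were called without the second T2 library and 15 without the first.

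In the thalamus-pituitary, ENSONIT00000022005, SELK, BANF1, DYNLL1 and COX5B were called beside RPS12. The other 3, ENSONIT00000016163, ENSONIT00000025129 and ENSONIT00000008697, were not called over both regions. ENSONIT00000016163 had 105 and 112 CPM with T2 against 6.69 and 8.64 CPM with T3 in the thalamus-pituitary (log2 fold change 3.85, edgeR adjusted p = 0.00177). In the cerebellum it had 94.5 and 8.15 CPM with T2 against 8.69 and 13.4 CPM with T3, so that only the first T2 library was high. ENSONIT00000025129 and ENSONIT00000008697 were likewise high in the cerebellum in that library alone among the 4, at 58.1 and 19.1 CPM.

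The difference between regions in the T2 against T3 contrast passed the threshold for 2 of 17595 transcripts (0.0114%), with 718 at an unadjusted p-value under 0.05. ENSONIT00000004104 moved in opposite directions. It had 38.9 and 41.8 CPM with T2 against 0.543 and 0.651 CPM with T3 in the cerebellum, and 1.81 and 7.13 CPM with T2 against 38.3 and 27.6 CPM with T3 in the thalamus-pituitary. The log2 fold changes were 5.99 and -2.87, and their difference, thalamus-pituitary minus cerebellum, was -8.86 (edgeR adjusted p = 0.0303). Controls had 27.95 and 18.9 CPM in the cerebellum and 13.4 and 60.5 CPM in the thalamus-pituitary, so that the group set apart from the controls was T3 in the cerebellum and T2 in the thalamus-pituitary.

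ENSONIT00000003216 differed in the cerebellum, with 0.638 and 0.795 CPM with T2 against 13.6 and 13.7 CPM with T3. In the thalamus-pituitary it was at 46.1 and 48.9 CPM with T2 and at 59.7 and 51.5 CPM with T3, a far smaller gap (difference between regions 3.89 on the log2 scale, edgeR adjusted p = 0.0303). Its cerebellum controls were at 6.35 and 0 CPM. Both interaction calls were lost in leave-one-out fits, in which between 0 and 8 transcripts passed: neither remained without either cerebellum T2 library, the first cerebellum T3 library or either thalamus-pituitary T3 library, and 8 passed without the second cerebellum T3 library.

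**Figure D3:**
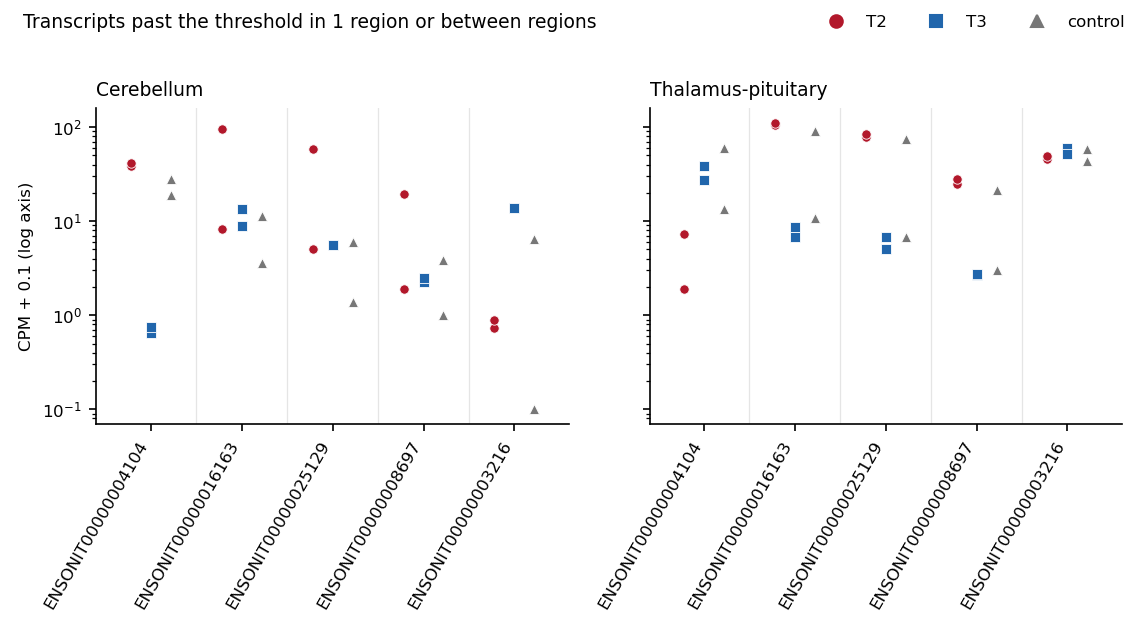
CPM, with 0.1 added and on a log axis, of the 5 transcripts named for 1 region or for a difference between regions and not called over both, in the cerebellum (left) and the thalamus-pituitary (right). Points are libraries, with T2 as circles, T3 as squares and controls as triangles. ENSONIT00000004104 shows circles above squares on the left and below them on the right.

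Over all transcripts tested in both regions, the cerebellum and thalamus-pituitary fold changes were weakly related. Pearson's r was 0.19 and Spearman's rho 0.20 across 15023 transcripts, which are not independent replicates, and 58.5% had the same sign. Without the 13 called transcripts r was 0.16. The 2 sets of fold changes share no library, but they share fish.

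**Figure D4:**
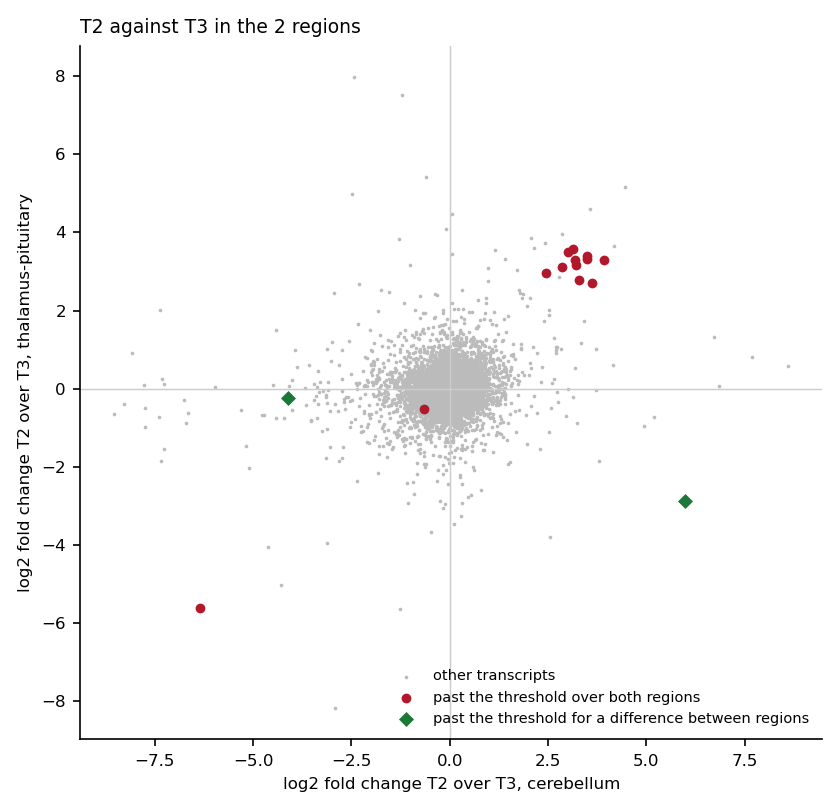
Log2 fold change of T2 over T3 in the thalamus-pituitary (vertical axis) against that in the cerebellum (horizontal axis), for the 15023 transcripts tested in both regions. Red circles mark the 13 called over both regions and green diamonds the 2 called for a difference between regions. Of the red circles, 11 lie in the upper right and 2 in the lower left.

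Genes that the study had followed by RT-qPCR, in the brain or, for SQSTM1, in the liver, did not pass in these 8 libraries. ANAPC11, the catalytic subunit of the anaphase-promoting complex that tags proteins with ubiquitin, had 2.55 and 18.5 CPM in the cerebellum and 9.50 and 17.9 CPM in the thalamus-pituitary with T2, against 0.543 and 0.434 CPM and 0.172 and 0.665 CPM with T3. The libraries did not overlap (log2 fold change 4.81, SE 0.68, 95% interval 3.26 to 6.35, edgeR adjusted p = 0.0592). CNDP1, a dipeptidase of carnosine-like peptides, was at 3.19 and 16.1 CPM in the cerebellum and 2.71 and 5.50 CPM in the thalamus-pituitary with T2, against 38.0 and 15.8 CPM and 4.63 and 427 CPM with T3. Its log2 fold change was -3.52 (edgeR adjusted p = 0.528) and moved to -0.92 without the single library at 427 CPM.

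LUC7L2, a splicing factor taken here for the LUC7L that the study names, although the symbols differ, varied between pools of the same hormone, at 30.6 and 6.76 CPM in the cerebellum and 0 and 10.6 CPM in the thalamus-pituitary with T2, against 0.271 and 0 CPM and 4.29 and 5.98 CPM with T3. T2 was thus higher in the cerebellum only, where the study reports LUC7L as raised by T2. The cerebellum log2 fold change of LUC7L2 was 6.85 and did not pass (edgeR adjusted p = 0.551). Its controls had 0.18 and 1.26 CPM in the cerebellum and 2.35 and 26.1 CPM in the thalamus-pituitary. Over both regions its log2 fold change was 2.29 (95% interval -1.03 to 5.61, edgeR adjusted p = 0.705). USP40, a deubiquitinase, had -2.14 (95% interval -4.63 to 0.35) and SQSTM1, a cargo receptor of autophagy, had -1.29 (95% interval -3.24 to 0.65). Each of these 3 intervals, taken over both regions, includes 0 as well as a change of several-fold in 1 direction. Over both regions, therefore, none of these 3 was set apart. The study reports USP40 as raised by T3 in the cerebellum. There its hormones did not overlap, at 0.638 and 0 CPM with T2 against 11.4 and 4.55 CPM with T3. The cerebellum log2 fold change was -5.31 and did not pass (edgeR adjusted p = 0.673). Its thalamus-pituitary libraries overlapped, with a log2 fold change of -0.54. SQSTM1 likewise did not overlap in the cerebellum, at 8.30 and 0 CPM with T2 against 13.85 and 22.1 CPM with T3. Its cerebellum log2 fold change was -2.69 and did not pass (edgeR adjusted p = 0.805). In the thalamus-pituitary SQSTM1 overlapped, with a log2 fold change of -0.27.

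Among groups of genes with a known role, no member besides RPS12 and COX5B passed the adjusted threshold for T2 against T3. The lists are therefore described by their counts at an unadjusted p-value under 0.05, printed beside the 8.6% of all transcripts. Their members could come only from the transcripts with a symbol, whose genes the authors clustered on these samples using their differential expression results. Such a source can raise a list's share in advance. A share above that of all transcripts therefore does not by itself set a list apart. Neuronal and synaptic genes stood at 11 of 31 transcripts tested (35.5%), 9 higher and 2 lower with T2, with a median log2 fold change of 0.19. In the cerebellum the list's median was 0.24 and in the thalamus-pituitary it was 0.17. In 11 of the 31 the hormones did not overlap in either region (9 with T2 above and 2 below), beside 10.1% of all transcripts.

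SNAP25 (ENSONIT00000001609), a membrane fusion protein of the synapse, had 1331 and 1078 CPM in the cerebellum and 1759 and 1625 CPM in the thalamus-pituitary with T2, against 829 and 921 CPM and 1392 and 1288 CPM with T3. The log2 fold change was 0.40 (95% interval 0.21 to 0.58, edgeR adjusted p = 0.266). GAP43 (ENSONIT00000021045), a protein of growing axons, was at 110 and 69.4 CPM and at 223 and 207 CPM with T2, against 56.7 and 58.5 CPM and 133 and 135 CPM with T3. In both genes the T2 libraries of a region lay above its T3 libraries, and in the thalamus-pituitary the controls lay higher than T3, at 1854 and 2309 CPM for SNAP25 and at 215 and 350 CPM for GAP43. MAPT, the microtubule-associated protein tau, had a log2 fold change of 0.31 (95% interval 0.15 to 0.47). For T3 against control, SNAP25 passed the threshold (log2 fold change -0.61, edgeR adjusted p = 0.0289). GAP43 did not (log2 fold change -0.72, edgeR adjusted p = 0.137). Neither passed for T2 against control.

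The opposite sign was found for UNC79, part of the NALCN sodium leak channel complex, with 37.0 and 21.9 CPM in the cerebellum and 54.1 and 37.7 CPM in the thalamus-pituitary with T2, against 85.8 and 93.2 CPM and 68.5 and 109 CPM with T3. Its log2 fold change was -1.28 (95% interval -1.82 to -0.75, edgeR adjusted p = 0.199). Controls lay near T2, at 37.4 and 36.5 CPM and at 42.2 and 53.0 CPM. UNC79 passed the threshold for T3 against control (log2 fold change 1.08, edgeR adjusted p = 0.0335) but not for T2 against control. CAMTA1, a neuronal transcription activator, had a log2 fold change of T2 over T3 of -0.69.

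The summed level of the neuronal markers SNAP25, GAP43, MAPT and MAP2, which repeats genes given above and is mostly SNAP25, lay in the same order. It ran between 2615 and 3413 CPM with T2 and between 1790 and 2002 CPM with T3 in the cerebellum, against 2471 to 3620 CPM in controls. In the thalamus-pituitary it ran between 2048 and 2280 CPM with T2 and between 1603 and 1690 CPM with T3, against 2299 to 2933 CPM in controls. In whole-tissue libraries such as these, fewer neurons and less RNA per neuron cannot be told apart. Not every neuronal transcript followed: 9 of the 31 had negative log2 fold changes. The MAP2 transcript ENSONIT00000016883 had -1.55 (edgeR adjusted p = 0.674). A second SNAP25 transcript, ENSONIT00000003702, followed in the cerebellum, at 1820 and 1332 CPM with T2 against 786.5 and 887.6 CPM with T3. In the thalamus-pituitary, where it was far lower, it overlapped, at 75.3 and 4.08 CPM with T2 and at 14.1 and 19.6 CPM with T3. The 75.3 CPM was in the T2 library with FAT2 at 86.9 CPM.

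The summed level of glial markers did not overlap in the cerebellum either and lay higher with T2, at 1841 to 1872 CPM with T2 and 1654 to 1828 CPM with T3, against 2164 to 2375 CPM in controls. In the thalamus-pituitary it overlapped, at 2597 to 2626 CPM with T2 and 2464 to 2672 CPM with T3, against 2675 to 2942 CPM in controls. In the glial gene list 0 of 10 transcripts were under an unadjusted p-value of 0.05 (edgeR), with a median of -0.05.

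**Figure D5:**
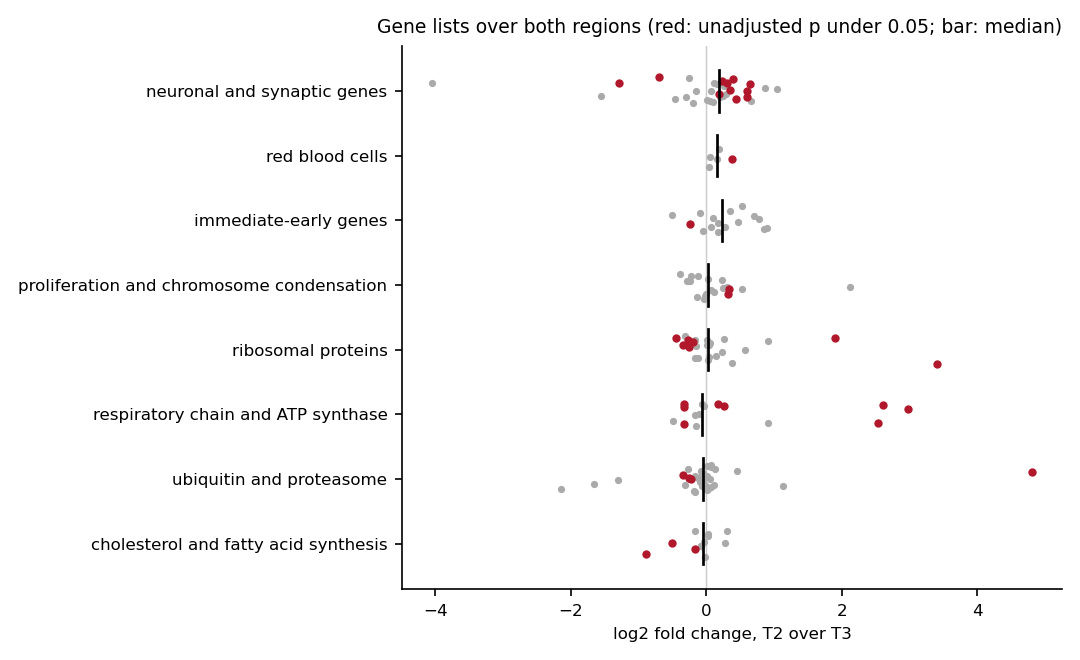
Log2 fold change of T2 over T3 for the transcripts tested in 8 of the gene lists. Each point is 1 transcript, red where the unadjusted edgeR p-value was under 0.05, and the black bar is the median of the list. Neuronal and synaptic genes have 9 red points right of 0 and 2 left of it, and the isolated red points far right are RPS12, RPS21, COX5B, COX19, UQCRH and ANAPC11.

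Genes of the respiratory chain and ATP synthase held 8 of 15 transcripts under an unadjusted p-value of 0.05 (53.3%), 5 higher and 3 lower with T2, and the median log2 fold change was -0.06. COX5B, COX19 and UQCRH were far above the others, with log2 fold changes of 2.98, 2.53 and 2.61. COX19, an assembly factor of cytochrome c oxidase, had 5.11 and 1.59 CPM in the cerebellum and 10.2 and 13.3 CPM in the thalamus-pituitary with T2, against 0.814 and 1.52 CPM and 0.687 and 1.33 CPM with T3, and its cerebellum controls were at 0.363 and 16.4 CPM. UQCRH, a subunit of complex III, was at 1.39 CPM in the second cerebellum T2 library and at 1.90 CPM in the first cerebellum T3 library, so that the hormones overlapped there, and its cerebellum controls were at 0.726 and 15.1 CPM.

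The other members under that p-value had small fold changes of either sign. ATP5A1, a subunit of ATP synthase, and ATPIF1 (ENSONIT00000004490), its inhibitor, had 0.18 and 0.27. COX4I1, another subunit of cytochrome c oxidase, had 343 and 420 CPM in the cerebellum and 443 and 472 CPM in the thalamus-pituitary with T2, against 528 and 467 CPM and 568 and 536 CPM with T3 (log2 fold change -0.33, 95% interval -0.51 to -0.14, edgeR adjusted p = 0.325). COX4I1 passed the threshold for T3 against control (log2 fold change 0.59, edgeR adjusted p = 0.0239) but not for T2 against control. COX5A and COX15 had log2 fold changes of T2 over T3 of -0.32 and -0.33. Members of a single enzyme, cytochrome c oxidase, thus lay on both sides of 0.

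Ribosomal protein transcripts showed the same division. Of 24 tested, 2 were higher and 5 lower with T2 at an unadjusted p-value under 0.05 (29.2%), with a median of 0.02. The higher ones were RPS12 and RPS21, at log2 fold changes of 3.40 and 1.89. Among the lower ones, RPL28 had 757 and 755 CPM in the cerebellum and 724 and 740 CPM in the thalamus-pituitary with T2, against 1060 and 857 CPM and 988 and 868 CPM with T3. Every T3 library exceeded every T2 library, and the controls were at 852 and 693 CPM and at 801 and 588 CPM (log2 fold change -0.34, 95% interval -0.52 to -0.17, edgeR adjusted p = 0.303).

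Genes that handle thyroid hormone or work with its receptor differed little. Of 10 transcripts tested, 1 was under an unadjusted p-value of 0.05 (10%), which was KAT2B, a histone acetyltransferase, at a log2 fold change of -0.31 (95% interval -0.61 to -0.02, edgeR adjusted p = 0.548). NCOR1, a corepressor that unliganded receptors recruit, had 0.02 (95% interval -0.15 to 0.18). RXRB, a partner of the receptor on DNA, had -0.14 (95% interval -0.32 to 0.05), and the coactivators EP300 and CARM1 had 0.09 and 0.07. CRYM, a cytosolic thyroid hormone binding protein, was less well measured, at 0.48 (95% interval -0.68 to 1.64).

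In stress-related lists more transcripts were lower than higher with T2 at that p-value. Of the unfolded protein response, 1 of 15 transcripts was higher and 3 were lower (26.7%), with a median of -0.03. DDIT3, the transcription factor CHOP, was the higher one at 0.63 (95% interval 0.13 to 1.14), while ATF4, which acts upstream of it, had -0.34. Glucocorticoid-inducible genes held 2 of 13 under an unadjusted p-value of 0.05 (15.4%), both lower. DDIT4, an inhibitor of mTORC1, had 91.9 and 105 CPM in the cerebellum and 90.3 and 92.5 CPM in the thalamus-pituitary with T2, against 143 and 132 CPM and 113 and 134 CPM with T3, and controls at 88.6 and 76.0 CPM and at 61.0 and 53.8 CPM were lowest (log2 fold change -0.45, 95% interval -0.63 to -0.27, edgeR adjusted p = 0.184). SGK1, a kinase induced by corticosteroids, had -0.44. DDIT4 passed the threshold for T3 against control (log2 fold change 0.91, edgeR adjusted p = 0.0069) but not for T2 against control (0.46, edgeR adjusted p = 0.174).

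Lipid synthesis genes held 3 of 12 under that p-value (25%), all lower with T2. ACACB, which makes malonyl-CoA at mitochondria, was at 1.28 and 2.98 CPM in the cerebellum and 5.88 and 4.48 CPM in the thalamus-pituitary with T2, against 4.34 and 3.90 CPM and 11.3 and 8.64 CPM with T3 (log2 fold change -0.89, 95% interval -1.60 to -0.17). FDPS, an enzyme of the mevalonate pathway, had -0.50 and GPAM, which starts glycerolipid synthesis, had -0.17. None of these 3 passed the adjusted threshold.

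Immediate-early genes, which respond to neuronal activity and handling, had 12 positive and 4 negative log2 fold changes in 16 transcripts, with a median of 0.23, and 1 of the 16 was under an unadjusted p-value of 0.05 (6.25%), KDM6B at -0.23. Among 34 transcripts of ubiquitin and the proteasome 1 was higher, ANAPC11, and 3 were lower (11.8%). Proliferation genes had 2 of 21, LBR and CENPF, both higher with T2 than with T3 (9.52%). Against control both were lower with either hormone. LBR had log2 fold changes of -0.42 with T2 and -0.75 with T3, and CENPF had -0.82 and -1.17. Only those with T3 passed the threshold (edgeR adjusted p = 0.0232 and 0.00807). Clock genes had 0 of 6 and neuropeptides 0 of 4 under an unadjusted p-value of 0.05 in the edgeR test. The second cerebellum T3 library stood apart in the neuropeptides CARTPT and PYY, at 62.0 and 24.3 CPM. All other cerebellum libraries, controls included, had 0 CPM of CARTPT and at most 0.271 CPM of PYY. The source of these reads was not tested.

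Markers of tissues that a dissection could carry along were not all low or alike. Connective tissue markers summed in the thalamus-pituitary to 21.94 to 37.71 CPM with T2 and 30.89 to 90.38 CPM with T3. Controls there held 72.35 to 289.4 CPM. The hormones overlapped in both regions. COL1A1 (ENSONIT00000008028), a collagen, had a log2 fold change of -0.925 (edgeR adjusted p = 0.513). Muscle markers ran from 322.7 CPM in a thalamus-pituitary T3 library to 779.1 CPM in a cerebellum control. Exocrine pancreas markers summed to between 9.27 and 29.8 CPM in all 12 brain libraries, and HBG2, a globin of red blood cells, had a log2 fold change of 0.38 (95% interval 0.17 to 0.59, edgeR). HBG2 passed the threshold for T3 against control (log2 fold change -1.05, edgeR adjusted p = 0.0289) but not for T2 against control (-0.67, edgeR adjusted p = 0.238). B2M, the light chain of MHC class I molecules, had 21.1 and 0 CPM in the cerebellum and 23.98 and 10.2 CPM in the thalamus-pituitary with T2, against 43.4 and 49.2 CPM and 61.8 and 52.8 CPM with T3, a log2 fold change of -2.16 (95% interval -3.58 to -0.73, edgeR adjusted p above the threshold). Whether such cells bear on the contrast was not tested.

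How closely differences were measured is given by the width of the 95% intervals, which are not adjusted for the number of transcripts tested. A call asked for more than an interval clear of 0. UNC79, for example, had an interval of -1.82 to -0.75 and was not called (edgeR adjusted p = 0.199). The median distance between a fold change and its 95% bound was 0.43 on the log2 scale over the 17595 transcripts, and for 13860 of them (78.8%) it was under 1. For most transcripts, therefore, a difference between the hormones larger than about 1 log2 unit from the estimate lay outside the interval.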

How the data were processed

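RNA from brain regions was sequenced as paired reads. The authors filtered the reads, mapped them by Bowtie 1.1.2 onto coding sequences from the Orenil1.0 assembly, and estimated transcript counts in eXpress 1.5, which divides reads shared by similar transcripts by probability. The deposited values used are effective counts, which are estimated counts, not normalised between libraries; they were rounded to whole numbers here. The authors' tables of each hormone against control (fold changes, p-values) and the liver libraries were not used.

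Libraries were scaled by TMM in edgeR 4.0.16 (R 4.3.3). Transcripts passing filterByExpr (smallest count 10, smallest total 15) were tested by the quasi-likelihood test on the 8 hormone libraries with region as covariate, per region, and for the region-by-hormone term, with Benjamini-Hochberg adjustment at 0.05. CPM used TMM totals of all 12 brain libraries. Each SE is the fold change over the root of the F statistic. Self-tests ran on simulated data. Controls never entered the main fit.

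Alternatives were DESeq2 1.42.0, limma 3.58.1 with pools as blocks, other scalings, filters, tests and designs, and leaving out each library. Named transcripts are all those past the threshold, those with the smallest p-values up to 20, those called per region or between regions, the RT-qPCR genes, and up to 4 per list with the smallest unadjusted p-values under 0.05; a few other list members were named after their values were seen. The comparison, lists and tests were chosen with earlier results of these data known. Symbols came from the study's gene supplement, held in part, whose genes the authors clustered on these samples.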

Additional observations from a re-analysis of the deposited data

Results flagged for a closer look

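For a library apart from the other 3, 40 groups of 4 libraries were examined, after each region's mean was removed on the log2 scale. In 2 of the 40 a library stood out. The limit used sets apart about 1 in 20 groups of independent values. These groups came from the transcripts with the smallest p-values and shared region means, so that rate need not hold here. In TXNDC15 the T3 libraries held 15.8, 14.1, 4.12 and 9.30 CPM, and the gap of the first thalamus-pituitary library to its neighbour made up 0.875 of their range. In ENSONIT00000019408 the same library made up 0.941 of the range of the T3 libraries, which held 1527, 1528, 1003 and 963 CPM.

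In 2 transcripts the T2 over T3 contrast differed between regions by the test of the difference itself (edgeR, adjusted p = 0.0303 for each). The difference, thalamus-pituitary minus cerebellum on the log2 scale, was -8.86 for ENSONIT00000004104, with T2 higher in the cerebellum and lower in the thalamus-pituitary in both libraries, and 3.89 for ENSONIT00000003216, with T2 lower in both cerebellum libraries.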

How the results depend on the processing

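Over both regions 13 transcripts were called. The count was 132 with DESeq2 (89 higher with T2, 43 lower), 158 with edgeR's likelihood ratio test, 21 without the low-count filter, 0 with all 12 brain libraries in 1 fit (1506 at an unadjusted p-value under 0.05), 5 with the regions summed per pool and 2 without transcripts whose controls were over 4-fold apart, an alternative chosen after seeing the data. Leaving out 1 library gave between 11 and 23, and 23 without the second cerebellum T2 library. RLE, totals alone, unrounded counts and thinning gave 13 to 15, limma with the pool as a block 13 (9 shared), no region term 9, and dropping the 2 thalamus-pituitary libraries with the most FAT2, also chosen after seeing the data, 9 (8 shared).

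In the cerebellum, where 2 were called, DESeq2 gave 47, no low-count filter 106, edgeR's exact test 115, thinning 1, and leave-one-out fits 0 to 27. In the thalamus-pituitary, where 9 were called, DESeq2 gave 50, no filter 18, the exact test 94, and leave-one-out fits 7 to 32. For the difference between regions, where 2 were called, DESeq2 gave 10, the likelihood ratio test 45, thinning 1, and leave-one-out fits 0 to 8. Where 1 library of a group was left out, the remaining one was assumed to vary like the other groups.

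With the replicate number as a block, 16 transcripts were called over both regions, 8 in the thalamus-pituitary, 0 in the cerebellum (861 at an unadjusted p-value under 0.05) and 0 for the difference between regions (711 unadjusted). Same-numbered pools of a hormone deviated together little between regions, with correlations of 0.09 for T2 and 0.02 for T3. A pairing by number was thus not shown, although the regions of a hormone drew on the same 8 fish. Between groups of different hormones, which share no fish, the correlations ran between -0.14 and -0.005. Of the named transcripts' values, 1217 kept direction and side of the threshold, 82 fell below it, 55 passed it and 2 turned: after thinning, LBR was at -0.14 and UBE2N at 0.044. The cause of these shifts was not tested. With 2 pools per hormone and region and down to 1568714 counts, low transcripts rest on few reads.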
